A study of Mus musculus with 17 samples.

Results

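The potassium channel genes of the mouse were taken as every symbol that starts with Kcn, goes on with a family letter or letters and ends in a number, with antisense and overlapping transcripts left out. The rule found 93 genes among the 55453 gene symbols measured, in 20 families, and left out 5 antisense or overlapping symbols, Kcnmb4os1, Kcnmb4os2, Kcnd3os, Kcnab3os and Kcnq1ot1. They were measured by total RNA sequencing of whole cortex from 17 male C57BL/6J mice in 3 lines that differ in Hnrnph2, an X-linked gene for an RNA-binding protein of the nucleus. The KO line carries a frameshift, and the R206W and P209L lines carry single amino acid changes in the nuclear localization signal. Cortex was taken at 8 weeks from KO and R206W lines, with 3 hemizygous mutants (KO, R206W) and 3 wild-type littermates (KO Control, R206W Control) each, and at 3 weeks from the P209L line, with 3 hemizygous mutants (P209L) and 2 wild-type littermates (P209L Control) analysed here. Every 3-week mouse came from the P209L line and every 8-week mouse from the other lines, so age and line cannot be told apart in any comparison of the ages. Each mutation is represented by 1 line.

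Potassium channels let potassium leave a cell along its gradient and so set the resting potential, end each action potential and limit repetitive firing. Pore-forming subunits fall into voltage-gated channels (Kv), inward rectifiers (Kir), leak channels with paired pore domains (K2P), and channels opened by calcium or sodium. Silent subunits form no channel alone and change the gating of others, and auxiliary subunits such as the Kv beta proteins and the potassium channel interacting proteins (KChIPs) bind to the pore subunits. In the cortex, channels of the Kv1 family sit on axons, Kv2 and Kv4 channels on cell bodies and dendrites, Kv7 channels carry the M current, Kv3 channels serve fast-spiking interneurons, and Kir4 and Kir5 channels are mainly astrocytic.

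Levels are given in TPM, the share of a library's transcripts that a gene takes, which is scaled by transcript length, so levels of different genes can be set side by side. Differences between groups are given as log2 of TPM plus 1 with their standard error (SE) and were called where limma's adjusted p was under 0.05. Of the 93 genes, 74 reached a mean of 1 TPM over the 17 mice and were tested, among 16265 tested genes in all. The other 19 were not tested. Of these, Kcnk16 was listed at 0 in every mouse and 7 stayed under 0.1 TPM in every mouse. All 93 matched a protein-coding gene of GENCODE M21 by symbol.

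In the knockout line Hnrnph2 itself was measured at 80.5, 145 and 140 TPM in KO Control 1, 2 and 3, and at 23.5, 21.3 and 24.4 TPM in the KO mice. KO Control 1 stood apart, with 36.5% of its TPM in its 10 most abundant genes against 19.4% to 29.3% in the other mice and 20.1% in mitochondrial genes against 10.7% to 15.4%. P209L Control 2 held choroid plexus RNA: the 6 choroid plexus markers summed to 1771 TPM there, nearly all from Ttr at 1740 TPM, and to between 2.56 and 27.0 TPM elsewhere. Pan-neuronal marker genes, 8 in number, were plentiful in every mouse, at summed levels of 3233 to 6470 TPM. Depth is unknown because the values are not counts. The groups are small. Each p-value rests on a spread per gene that is pooled within all 6 groups and that limma draws toward other genes. It takes no account of spread between lines.

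The promoters of the channel genes with the largest differences in log2(TPM + 1) between the ages are shown here to give the sequence around their starts. Of the 93 genes, 68 had at least 1 entry among the RefSeq promoters of GRCm38.p6, which run from 250 bases before to 50 bases after a start, and Kcna1 had none. Capitals mark, on either strand, GGGCGG (the core of an Sp1 site), CCAAT (the CCAAT box), TATAAA (the TATA box), TGACGTCA (the cAMP response element) or CACGTG (an E box), and no match overlaps another in these windows. Kcna3 lies at chr3:107035912-107036211 (plus strand), Kcnh5 at chr12:75177283-75177582 (minus strand) and the upstream start of Kcnj6 at chr16:94997647-94997946 (minus strand).
Kcna3: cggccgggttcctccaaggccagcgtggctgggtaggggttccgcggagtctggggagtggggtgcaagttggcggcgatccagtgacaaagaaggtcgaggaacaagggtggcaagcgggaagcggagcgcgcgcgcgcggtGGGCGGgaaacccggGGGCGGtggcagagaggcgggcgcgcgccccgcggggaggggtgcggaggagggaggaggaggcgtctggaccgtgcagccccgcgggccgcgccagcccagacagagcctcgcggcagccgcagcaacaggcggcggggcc
Kcnh5: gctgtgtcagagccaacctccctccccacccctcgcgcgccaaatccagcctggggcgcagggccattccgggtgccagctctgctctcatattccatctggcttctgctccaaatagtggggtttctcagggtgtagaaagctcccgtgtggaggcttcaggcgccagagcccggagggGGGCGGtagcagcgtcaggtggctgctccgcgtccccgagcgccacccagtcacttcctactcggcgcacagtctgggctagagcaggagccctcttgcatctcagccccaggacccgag
Kcnj6: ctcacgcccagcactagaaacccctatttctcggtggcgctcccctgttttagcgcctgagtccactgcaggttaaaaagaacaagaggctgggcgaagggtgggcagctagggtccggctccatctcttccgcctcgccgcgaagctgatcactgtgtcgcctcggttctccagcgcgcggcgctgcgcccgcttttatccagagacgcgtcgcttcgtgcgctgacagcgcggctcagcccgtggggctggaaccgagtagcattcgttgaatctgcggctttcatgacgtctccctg
The Kcna3 window held 2 copies of GGGCGG and 37 CpG pairs, and the Kcnh5 window 1 copy and 17 CpG pairs. The printed Kcnj6 window held 30 CpG pairs and none of the 5 motifs. A downstream Kcnj6 window at chr16:94856641-94856940 (minus strand), not printed, held GGGCGG and 9 CpG pairs. Over all 93 windows of the 68 channel genes, GGGCGG was found in 48.4%, against 35.7% of the 32851 promoters in the table, CCAAT in 30.1% against 37.4%, and TATAAA in 5.38% against 13.6%. CACGTG was found in 7.53% against 7.15%, and TGACGTCA in 0 windows against 1.79%. Among the channel genes, GGGCGG was present in 44.7% of the 38 windows of those called lower at 3 weeks and in 54.1% of the 37 windows of tested members with no call. These shares are descriptions, and the ages were not compared on sequence.

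Potassium channel transcripts were abundant and spread over many families. Of the 74 tested members, 49 exceeded a mean of 10 TPM over the 17 mice, 19 exceeded 50 TPM and 3 exceeded 100 TPM. Kcnab2, the Kv beta subunit with the highest level, averaged 204 TPM (93.0 to 299 TPM over the mice). Kcnj9, a subunit of the inward rectifiers opened by G proteins, averaged 102 TPM (59.8 to 123 TPM). Kcnip3 (88.7 TPM), Kcnt1 (87.5 TPM), Kcnh3 (87.1 TPM), Kcnj4 (82.5 TPM), Kcnk1 (81.7 TPM) and Kcnip2 (80.9 TPM) were also among the most abundant members, and their ranges over the mice overlapped one another.

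**Figure D1:**
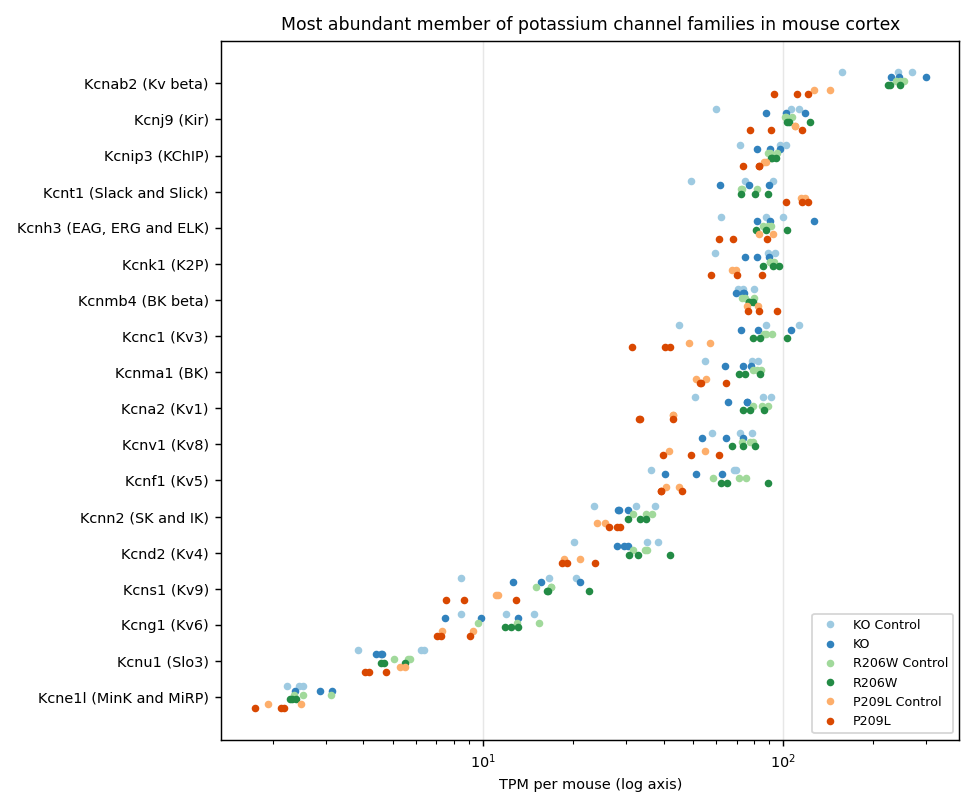
TPM in each of the 17 mice (log axis) for the most abundant member of 18 of the 20 families, ordered by mean level and coloured by group. Levels run from Kcnab2 at a mean of 204 TPM to Kcne1l at 2.41 TPM, and within a family lead the 3-week mice (orange) often sit to the left of the 8-week mice, Kcnt1 being the one that sits to the right in every 3-week mouse.

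The most abundant members of further families were Kcnmb4, the neuronal beta subunit of the calcium-activated BK channel (77.4 TPM), Kcnc1 of the Kv3 family (74.0 TPM), Kcnma1, the BK pore (69.7 TPM), Kcna2 of the Kv1 family (66.6 TPM), the silent subunits Kcnv1 (64.7 TPM) and Kcnf1 (56.5 TPM), Kcnn2 of the small-conductance SK channels (30.3 TPM), and Kcnd2 of the Kv4 family (28.8 TPM). Below these came Kcns1 (14.7 TPM), Kcng1 (10.6 TPM), Kcnu1, the Slo3 gene known from sperm (5.0 TPM), and Kcne1l of the MinK family (2.41 TPM). Summed over all 93 members, the channels took 2821 to 2939 TPM in the R206W controls, 2763 to 3224 TPM in R206W, 2546 to 2981 TPM in KO, 2096 and 2104 TPM in the P209L controls and 1825 to 2250 TPM in P209L. The KO controls ranged from 1869 TPM in KO Control 1 to 3175 TPM, so that KO Control 1 lay among the 3-week mice in this sum.

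The comparison of ages asked how channel levels differ between the 3-week and 8-week cortex, first in wild-type mice (2 P209L controls against the 6 controls of the other lines). Of the 74 tested members, 32 were called lower and 1 higher, against 24.8% lower and 11.3% higher among all 16265 tested genes. That is 43.2% of the tested members lower and 1.35% higher. The median difference over the members was -0.35, against -0.12 over all genes, and 61 members had a difference below 0 and 13 above 0. The groups did not overlap, with both 3-week mice below all 6 of the 8-week mice, for 24 members (21.5% of all tested genes did so) and in the other direction for 1 member (16.7% of all genes). In these bulk samples fewer cells of a type and less RNA per cell cannot be told apart.

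Members with the largest differences in log2(TPM + 1) were voltage-gated pore subunits and an inward rectifier. Kcna3, a Kv1 channel gene (chr3:107036169-107038070, plus strand, mm10), was measured at 6.64, 8.80 and 6.82 TPM in the KO controls, at 10.3, 9.28 and 9.22 TPM in the R206W controls, and at 1.57 and 1.56 TPM in the P209L controls. Both 3-week mice lay far below the lowest 8-week mouse, and the difference was -1.88 (SE 0.171, limma adjusted p = 8.47e-06). Kcna1 of the same family (chr6:126640397-126646384, minus strand), an axonal channel in which mutations cause episodic ataxia, was measured at 20.7, 44.7 and 50.6 TPM in the KO controls, 45.1, 46.7 and 40.9 TPM in the R206W controls, and 11.2 and 11.6 TPM in the P209L controls. The groups did not overlap even with KO Control 1, the lowest of the 8-week mice, and the difference was -1.73 (SE 0.260, limma adjusted p = 0.000216).

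Kcnh5 (chr12:74897220-75177332, minus strand), an ether-à-go-go channel of the brain, was measured at 13.7, 17.2 and 11.4 TPM in the KO controls, 18.3, 16.7 and 14.2 TPM in the R206W controls and 3.52 TPM in each of the 2 P209L controls. The 3-week level was again under every 8-week value, with a difference of -1.83 (SE 0.278, limma adjusted p = 0.000236). Kcnj6 (chr16:94748636-94997701, minus strand), a subunit of the inward rectifiers that G proteins open, was measured at 19.0, 34.8 and 37.4 TPM in the KO controls, 33.5, 35.6 and 32.7 TPM in the R206W controls and 8.40 and 9.28 TPM in the P209L controls. Its groups did not overlap and its difference was -1.72 (SE 0.224, limma adjusted p = 8.22e-05). The promoter windows printed above belong to 3 of these 4 genes.

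**Figure D2:**
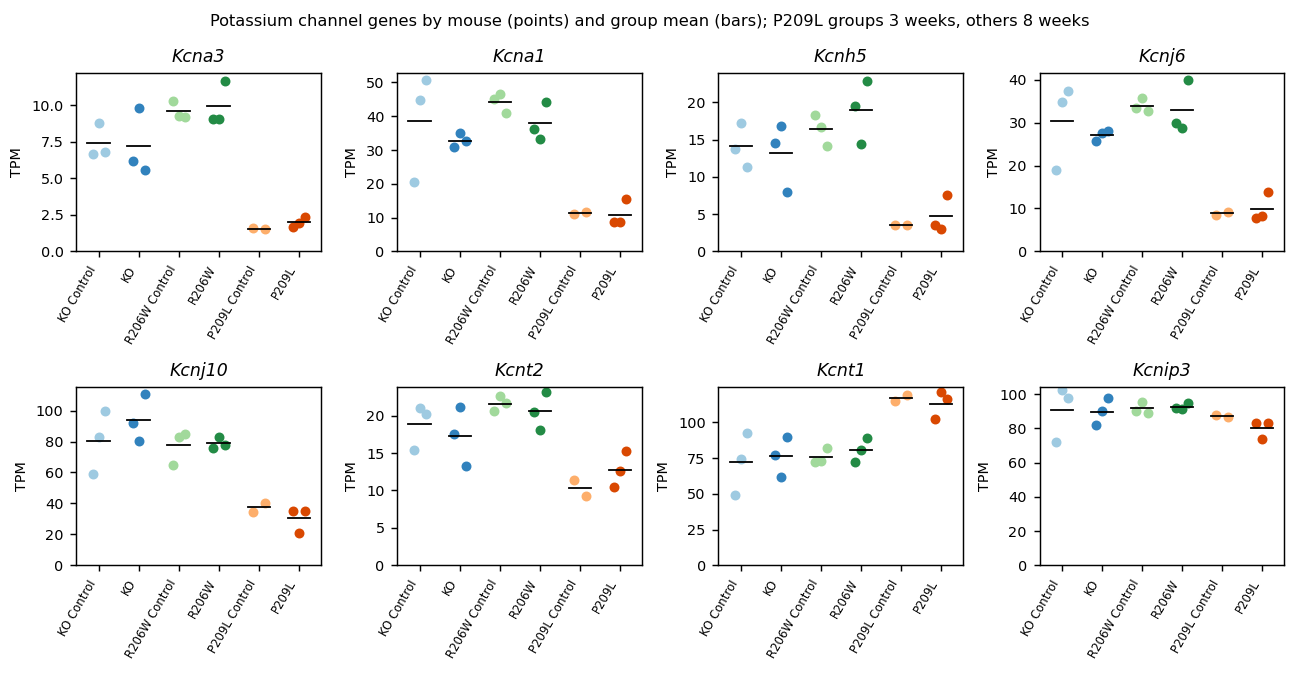
TPM of 8 channel genes in each mouse (points) with the group mean (bar), by group. Kcna3, Kcna1, Kcnh5, Kcnj6 and Kcnj10 are low in all 5 mice of the P209L line, which were 3 weeks old, Kcnt1 is high in those mice, Kcnt2 overlaps in the mutants, and Kcnip3 lies at similar levels in all groups.

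A second tier of members was lower at 3 weeks by about 1 in log2(TPM + 1). The added 1 shrinks differences most at low levels, so the place of Kcng3 in this order depends on it. Kcng3, a silent subunit that joins Kv2 channels, was at 1.79 to 2.7 TPM in the 8-week controls and at 0.330 and 0.340 TPM in the 3-week controls (difference -1.26, SE 0.125, limma adjusted p = 1.27e-05). Kcnj10, the main inward rectifier of astrocytes, was at 58.9, 82.7 and 100 TPM in the KO controls, 64.7, 82.9 and 84.9 TPM in the R206W controls, and 34.4 and 40.5 TPM in the P209L controls (difference -1.04, SE 0.206, limma adjusted p = 0.00145). Neither gene overlapped between the ages. Kcnh7, an ERG channel gene, followed at -0.99 (SE 0.162), Kcnk12, a K2P subunit, at -0.96 (SE 0.234), and Kcnb2, a delayed rectifier, at -0.87 (SE 0.143), all without overlap. Without P209L Control 1 the call of Kcnk12 was lost (-0.87, limma adjusted p = 0.0721).

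The sodium-activated channels moved apart from each other. Kcnt1 (chr2:25863734-25918273, plus strand), the Slack channel gene, was the single member called higher at 3 weeks. It was measured at 49.3, 74.6 and 92.5 TPM in the KO controls, 72.6, 73.2 and 82.1 TPM in the R206W controls and 115 and 119 TPM in the P209L controls, with no overlap (difference 0.68, SE 0.182, limma adjusted p = 0.00988). With a single P209L control left the difference kept its size and missed the threshold, at 0.70 and an adjusted p of 0.0663 without P209L Control 1, and at 0.65 and an adjusted p of 0.0851 without P209L Control 2. Kcnt2, the Slick channel gene that can assemble with Slack, was at 15.4 to 22.6 TPM in the 8-week controls and at 11.4 and 9.25 TPM in the 3-week controls (difference -0.90, SE 0.170, limma adjusted p = 0.00107). The ratio of Kcnt1 to Kcnt2 ran from 7.63 to 12.8 in the 5 mice of 3 weeks and from 2.92 to 6.77 in the 12 mice of 8 weeks, so the ages did not overlap within a mouse either, whatever the scaling between libraries.

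**Figure D3:**
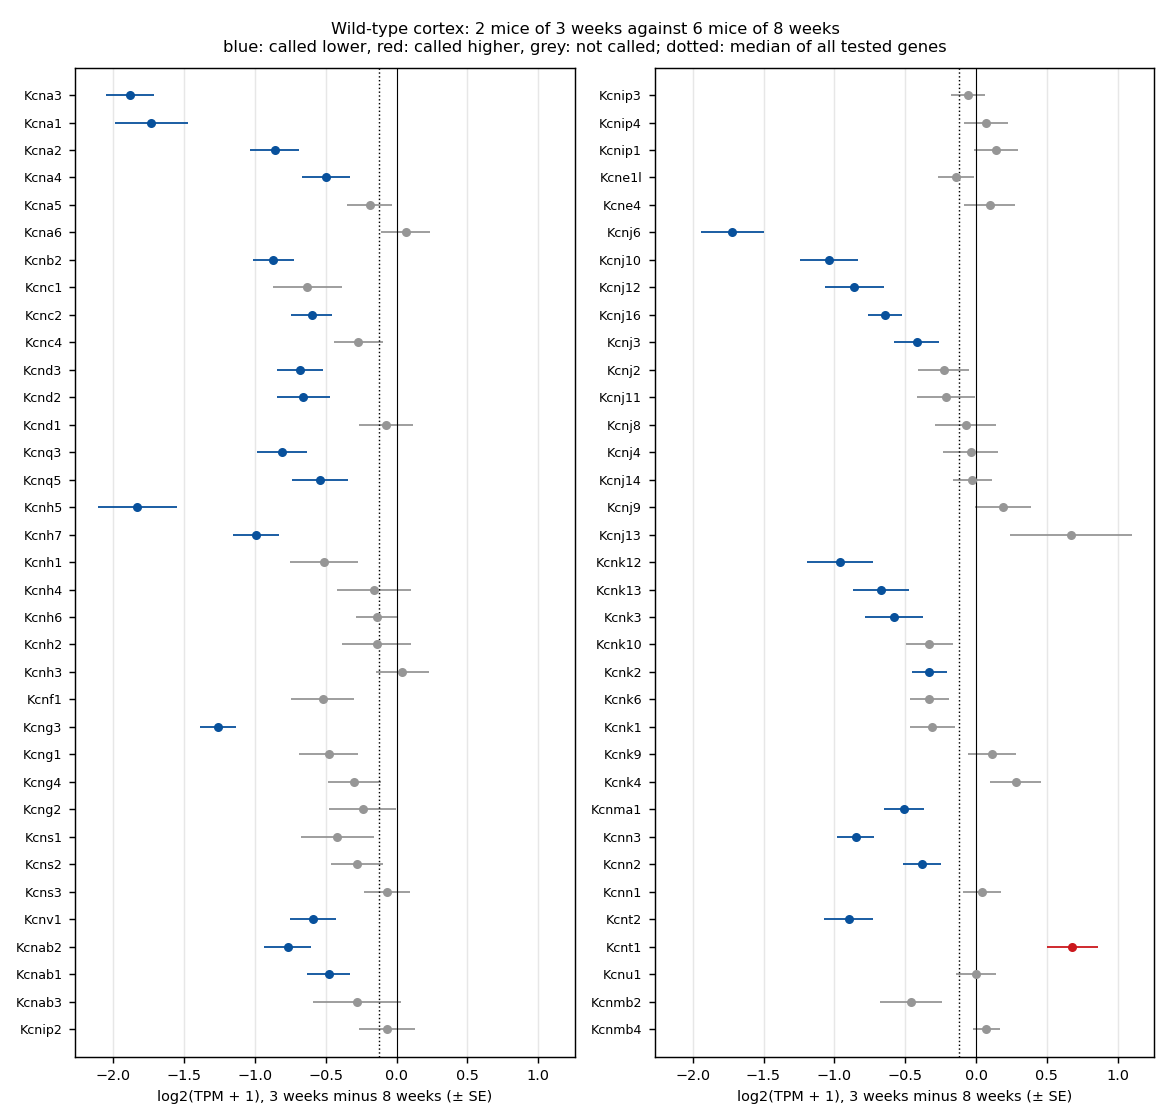
Difference in log2(TPM + 1) between 2 wild-type mice of 3 weeks and 6 of 8 weeks, with its SE, for 70 of the 74 tested members in family order, blue where called lower, red where called higher and grey where not called. The dotted line is the median of all tested genes (-0.12). Blue points fill most of the voltage-gated families on the left, while the KChIPs, Kcnj9, Kcnj4 and Kcnmb4 lie near 0.

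Among the voltage-gated pore subunits, 15 of 26 tested members were called lower at 3 weeks and 0 higher, which is 57.7% lower against 24.8% of all tested genes, with a median difference of -0.62. In the Kv1 family 4 of 6 were lower, Kcna2 among them, the partner of Kcna1 on axons, at 50.9 to 91.5 TPM in the 8-week controls and 43.1 and 42.9 TPM in the 3-week controls (difference -0.86, SE 0.173). Kcna6 of the same family was at 22.3 to 42.0 TPM at 8 weeks and at 35.9 and 37.2 TPM at 3 weeks, within the 8-week range. The ratio of Kcna1 to Kcna6 was 0.286 to 0.546 at 3 weeks and 0.883 to 1.24 at 8 weeks.

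Kcnq3, a pore subunit of the M current, was at 37.6, 58.0 and 61.1 TPM in the KO controls, 61.1, 59.1 and 51.6 TPM in the R206W controls and 31.2 and 29.4 TPM in the P209L controls, without overlap (difference -0.81, SE 0.178, limma adjusted p = 0.00281). Kcnq5 of the same family was called as well (-0.54, SE 0.195). The Kv4 genes Kcnd2 (-0.66, SE 0.187) and Kcnd3 (-0.68, SE 0.161), which carry the transient current of dendrites, were called lower, and Kcnd1 was not (-0.08, SE 0.193). Of the Kv3 genes, Kcnc2 was called (-0.60, SE 0.143) and Kcnc1 missed the threshold (-0.63, SE 0.245, limma adjusted p = 0.0564). Kcnc1 was called lower in 5 of its 17 alternatives, with the largest difference without KO Control 1 (-0.82, limma adjusted p = 0.000663). Kcnh3, an ELK channel gene and the most abundant of its family, was not called and changed sign between alternatives. It was at 62.2 to 100 TPM in the 8-week controls and at 82.9 and 92.7 TPM in the 3-week controls.

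Of the silent modifier subunits, 2 of 9 tested members were called lower, Kcng3 and Kcnv1 (-0.59, SE 0.165), a share of 22.2% near the 24.8% of all tested genes. Of the auxiliary subunits of voltage-gated channels 2 of 9 were called as well, both of them Kv beta genes and again 22.2%. Kcnab2 was at 158, 242 and 268 TPM in the KO controls, 238.1, 245 and 253 TPM in the R206W controls and 127 and 144 TPM in the P209L controls (difference -0.77, SE 0.165, limma adjusted p = 0.00252). None of the 4 KChIP genes, whose products bind Kv4 channels, was called. Kcnip3 was at 71.8 to 103 TPM at 8 weeks and 87.6 and 86.5 TPM at 3 weeks, and Kcnip2 at 50.6 to 99.2 TPM and 74.9 TPM in both 3-week controls. With median-of-ratios size factors, which set the median over all genes at 0, Kcnip1 became called higher (0.28, limma adjusted p = 0.0176). The ratio of Kcnip2 to Kcnd2 was 3.40 to 4.07 at 3 weeks and 2.11 to 3.16 at 8 weeks. By role, in the controls 28 of 54 tested pore subunits (51.9%) and 4 of 20 tested modifier and auxiliary subunits (20.0%) were called lower. All tested genes stood at 24.8%. In the mutants, compared below, these counts were 36 of 54 (66.7%) and 9 of 20, against 32.1% of all tested genes. Silent modifier subunits were called lower there in 7 of 9 cases (77.8%). With size factors the mutant counts were 34 of 54, 5 of 20 and, for silent subunits, 3 of 9, against 25.4% of all genes. The difference between the role shares was not tested in either set.

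Of the inward rectifiers, 5 of 12 tested members were called lower, 41.7% against 24.8% of all tested genes. These were Kcnj6, Kcnj10, Kcnj12 (-0.86, SE 0.207), Kcnj16 (-0.64, SE 0.120) and Kcnj3 (-0.42, SE 0.159). Kcnj9, which assembles with Kcnj6 and Kcnj3, was at 59.8 to 113 TPM in the 8-week controls and 110 TPM in both 3-week controls and was not called (0.19, SE 0.199). It became called higher with size factors (0.33, limma adjusted p = 0.0457) and with quantile normalization (0.36, limma adjusted p = 0.0367). The ratio of Kcnj6 to Kcnj9 was 0.0764 to 0.120 at 3 weeks and 0.238 to 0.348 at 8 weeks. Kcnj16, the partner of Kcnj10 in astrocytes, was at 13.7 to 19.7 TPM at 8 weeks and 11.0 and 11.2 TPM at 3 weeks, without overlap. Beside these, the 8 astrocyte markers summed to 1769 to 2314 TPM in the 8-week controls and to 1521 and 1869 TPM in the 3-week controls, and 3 of the 8 were called lower. Their part in the levels of Kcnj10 and Kcnj16 was not tested.

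Of the leak channel subunits 4 of 9 tested members were called lower, 44.4% against 24.8% of all tested genes. These were Kcnk12, Kcnk13, Kcnk3 and Kcnk2, and the family median was -0.33. With size factors 3 of the 9 were lower and 1 higher, against 22.6% and 21.5% of all tested genes. The mechanically gated Kcnk4 was at 27.5 to 45.5 TPM at 8 weeks and 46.0 and 41.9 TPM at 3 weeks, not called (0.28, SE 0.180) but called higher with size factors (0.42, limma adjusted p = 0.0124). Of the calcium- and sodium-activated pore subunits and the related Kcnu1, 4 of 7 were called lower, 57.1% against 24.8% of all tested genes. These were Kcnt2, Kcnma1 (-0.51, SE 0.140), Kcnn2 (-0.38, SE 0.133) and Kcnn3 (-0.85, SE 0.133). Neither tested BK beta subunit was called, and Kcnmb4 was at 70.7 to 80.1 TPM in the 8-week controls and at 82.4 and 76.1 TPM in the 3-week controls (0.07, SE 0.0958).

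The count of members lower at 3 weeks moved with the mice. It was 41 without KO Control 1 (37.4% of all tested genes), 17 without P209L Control 1 (13.2%), 18 without P209L Control 2 (11.7%), and 36 without both KO Control 1 and P209L Control 2 (27.9%). Under all 17 other analyses of this comparison 14 of the 32 calls held, those of Kcna1, Kcna2, Kcna3, Kcnab2, Kcnb2, Kcng3, Kcnh5, Kcnh7, Kcnj6, Kcnj10, Kcnj16, Kcnn3, Kcnq3 and Kcnt2. The other 18 were lost under at least 1 of them. The scaling between libraries shifted the background. With size factors 32 members were lower and 4 higher while all genes stood at 22.6% lower and 21.5% higher, and with quantile normalization 31 and 5 against 21.9% and 22.5%.

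Several neuronal marker genes were lower at 3 weeks too. The 8 pan-neuronal markers summed to 3470 and 3747 TPM in the P209L controls and 3233 to 3747 TPM in P209L, against 5254 to 6470 TPM in 11 of the 12 mice of 8 weeks and 3590 TPM in KO Control 1. Of the 8, Snap25, Syt1, Map2 and Syn1 were called lower in the 3-week controls, Stmn2 was called higher (0.43, limma adjusted p = 0.0185), and Rbfox3, Tubb3 and Eno2 were not called. The summed channel level divided by the summed pan-neuronal level was 0.559 to 0.606 in the 5 mice of 3 weeks, 0.477 to 0.535 in 11 mice of 8 weeks and 0.521 in KO Control 1. The 7 parvalbumin interneuron markers summed to 199 and 201 TPM in the P209L controls against 171 to 196 TPM in the 8-week controls. Mature oligodendrocyte markers summed to 4090 and 6103 TPM in the P209L controls against 2641 to 3617 TPM in the 8-week controls. The part of these cell types in the channel levels was not tested.

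Mutants of the 2 ages, which share no mouse with the controls, were compared in the same way (3 P209L mice against 3 KO and 3 R206W mice). Of the 74 members, 45 were called lower at 3 weeks and 1 higher, against 32.1% lower and 13.9% higher among all genes. With size factors 39 were lower and 6 higher, against 25.4% and 26.0% of all genes. Of the 33 members called in the controls, 32 were called in the mutants in the same direction, which is 97.0% of the control calls and 69.6% of the 46 mutant calls. The matching shares over all tested genes were not computed, so these 2 shares have no background beside them and mark nothing particular to the channel genes. Across the 74 members the differences in the controls and in the mutants had a Pearson r of 0.846 and a Spearman rho of 0.821, against 0.764 (Pearson) across all tested genes. This is a description, since genes are not independent replicates and the same lines, ages and strain stand behind both sets.

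Kcna3 was at 6.17, 9.82 and 5.56 TPM in KO, 9.06, 9.05 and 11.7 TPM in R206W and 1.65, 1.94 and 2.37 TPM in P209L, a difference of -1.65 (SE 0.148, limma adjusted p = 3.4e-06). Kcna1 was at 30.8, 35.1 and 32.5 TPM in KO, 36.2, 33.2 and 44.2 TPM in R206W and 8.57, 8.64 and 15.4 TPM in P209L, a difference of -1.65 (SE 0.225). Kcnj6 was at 25.8 to 39.9 TPM in the 8-week mutants and 7.76, 8.14 and 13.8 TPM in P209L, and Kcnh5 at 8.02 to 22.9 TPM and 3.48, 3.07 and 7.63 TPM. All 4 genes were thus low in every mutant of 3 weeks with no overlap, P209L 3 being the highest of the 3 for each. Kcnt1 was at 61.9 to 89.7 TPM in the 8-week mutants and at 102, 121 and 116 TPM in P209L, again without overlap (difference 0.53, SE 0.158, limma adjusted p = 0.013). Kcnt2 was called lower here as well (-0.53, SE 0.147), with P209L 3 at 15.2 TPM above KO 3 at 13.3 TPM.

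**Figure D4:**
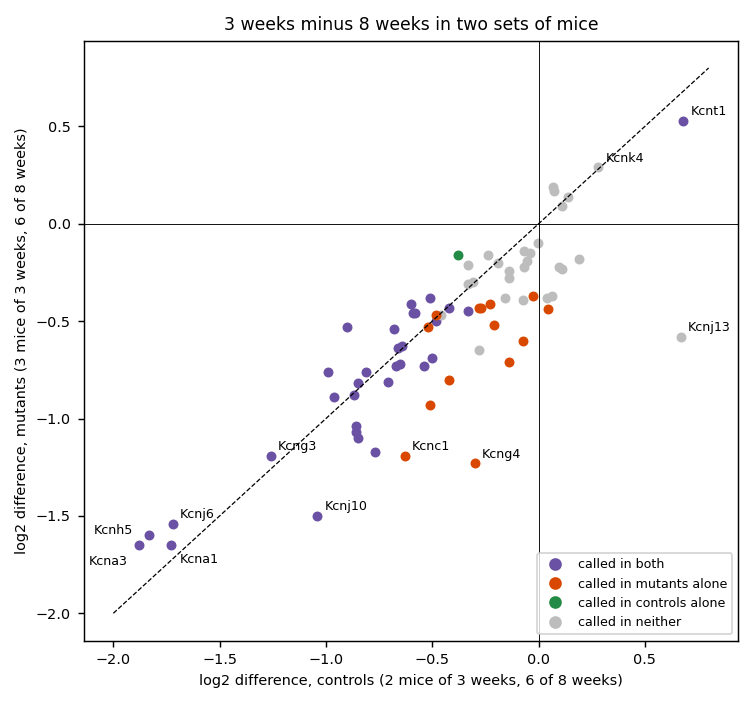
Difference between 3 and 8 weeks in log2(TPM + 1) for the 74 tested members, in wild-type controls (horizontal) and in mutants (vertical), with the line of equality dashed. Of the points, 61 lie below 0 on both axes, Kcnt1 lies above 0 on both and was called in both, and Kcng4 lies furthest below the line among the members called in the mutants.

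Members called in the mutants alone numbered 14, among them Kcng4 (-1.23, SE 0.162), Kcnc1 (-1.19, SE 0.213), Kcnh1 (-0.93, SE 0.208), Kcns1 (-0.80, SE 0.224) and Kcnh2 (-0.71, SE 0.210). Kcnc1, the Kv3 gene of fast-spiking neurons, was at 72.4 to 106 TPM in the 8-week mutants and at 40.4, 31.4 and 41.9 TPM in P209L, without overlap. In the controls it was at 44.9 to 113 TPM at 8 weeks, KO Control 1 being the lowest, and at 48.8 and 57.2 TPM at 3 weeks. A call in one set alone does not show that the sets differ, and the difference between the 2 age comparisons was not tested. Without KO Control 1, 6 of the 14 were called lower in the controls too, Kcnc1, Kcnc4, Kcnf1, Kcng1, Kcnh1 and Kcns1. Kcnn2 was called in the controls alone (-0.38, and -0.16 in the mutants).

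Channel genes linked to inherited epilepsy in humans formed a list of 18, of which all but Kcnv2 were tested. In the wild-type mice 13 of the 17 were called lower at 3 weeks and Kcnt1 higher, with a median difference of -0.66, and in the mutants 16 were called lower and Kcnt1 higher, with a median of -0.73. Lower calls were thus 76.5% and 94.1% of the tested list, against 24.8% and 32.1% of all tested genes. The list was chosen with earlier results of these data known, so these shares are descriptions and no independent support. The 3 members of the list without a call in the controls were Kcnc1, Kcnh1 (-0.51, SE 0.240) and Kcnj11, the pore of the ATP-sensitive channel (-0.21, SE 0.204). Without P209L Control 1 the list held 8 calls in the controls (18.3% of all genes called in either direction), and without P209L Control 2 it held 7 (16.7%), Kcnt1 among those lost. Without KO Control 1 it held 16 (50.3%).

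Genes whose products bind, anchor or work beside these channels formed a list of 23, of which 20 were tested. This list too was chosen with earlier results of these data known, so its shares are descriptions. In the controls 9 of the 20 were called lower at 3 weeks and 0 higher, against 24.8% lower among all tested genes, and in the mutants 13 of the 20 were called lower, against 32.1%. Hcn2, a pore of the hyperpolarization-activated cation channel, was at 43.6 to 68.0 TPM in the 8-week controls and 27.0 and 31.0 TPM in the 3-week controls (difference -1.02, SE 0.146, limma adjusted p = 0.000154). Ank3, the ankyrin that holds Kv7 channels at the axon initial segment (-0.94, SE 0.196), was also called. Cntn2, a cell adhesion protein that clusters Kv1 channels beside the nodes (-0.67, SE 0.238), Dlg2, a scaffold protein (-0.58, SE 0.0979), and Dpp10, an auxiliary protein of Kv4 channels (-0.55, SE 0.141), were called as well. Sptbn4, the spectrin of the initial segment, was at 33.6 to 67.2 TPM at 8 weeks and 62.9 and 70.8 TPM at 3 weeks and was not called (0.23, SE 0.206). Their count in the controls was 16 without KO Control 1 (50.3% of all genes called in either direction), 4 without P209L Control 2 (16.7%), 5 without P209L Control 1 (18.3%), and 5 without each other control mouse in turn (30.8% to 34.0%).

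Channel levels in the mutants were compared with those of their own littermates. In KO, 0 of 74 members were called and 0 had an unadjusted p under 0.05 with limma, against 0.00615% called and 4.08% under 0.05 among all tested genes. The members with the smallest p were Kcnmb2, a BK beta subunit, at 6.59, 5.58 and 6.48 TPM in the KO controls and 6.58, 4.02 and 2.87 TPM in KO (-0.45, SE 0.216, limma adjusted p = 0.999), Kcnj16 (0.22, SE 0.120) and Kcnj2, an inward rectifier (0.32, SE 0.179). Kcnmb2 overlapped between the groups. Kcnj16 was at 22.9, 23.0 and 21.3 TPM in KO and at 18.6, 19.0 and 19.7 TPM in the KO controls. It was the only 1 of the 74 members without overlap, and the share of all tested genes without overlap is not given here. Sample weights fitted from the data gave KO Control 1 a weight of 0.0744. With them 16 of the 74 members were called in KO, all of them lower, against 17.1% of all genes called. The share of all genes called lower is not given here. Among the 16 were Kcnf1 (-0.65), Kcng1 (-0.54), Kcna1 (-0.49) and Kcnj6 (-0.40). Without KO Control 1 the limma fit gave 0 called members.

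In R206W, 0 of 74 members were called and 0 had an unadjusted p under 0.05, against 0.0369% called and 2.19% under 0.05 among all genes. Differences ran from -0.23 to 0.25 on the log2 scale. Kcnc4, a Kv3 gene, was at 37.3, 36.6 and 33.4 TPM in the controls and at 39.9, 40.7 and 47.8 TPM in R206W (0.25, SE 0.173, limma adjusted p = 1.0), and Kcnip2 at 84.2, 82.7 and 82.5 TPM and 96.6, 88.8 and 108.5 TPM (0.23, SE 0.196). Both were higher in every mutant than in every control, as were 4 members in all, against 8.09% of all genes. Kcne1l was at 3.12, 2.34 and 2.52 TPM in the controls and at 2.39, 2.27 and 2.32 TPM in R206W, with overlap (-0.13, SE 0.126).

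In P209L, 0 of 74 members were called and 4 had an unadjusted p under 0.05, against 0.0984% called and 7.46% under 0.05 among all genes. Kcng4, a silent subunit, was at 2.95 and 3.87 TPM in the P209L controls and at 1.79, 1.23 and 1.67 TPM in P209L (-0.78, SE 0.209, limma adjusted p = 0.264). Kcnn1, an SK channel gene, was at 14.1 and 12.8 TPM in the controls and at 9.16, 8.99 and 9.26 TPM in P209L (-0.51, SE 0.148, limma adjusted p = 0.324). Neither overlapped between the groups, and Kcnn1 was called with size factors (-0.51, limma adjusted p = 0.0456) and under no other alternative. Kcnj14, an inward rectifier, was at 1.23 and 1.01 TPM in the controls and 0.700, 0.670 and 0.690 TPM in P209L (-0.33, SE 0.153). Members entirely below their controls numbered 12 of 74, against 10.7% of all genes, and 5 lay entirely above, against 14.2%. Beside these, all 8 mature oligodendrocyte markers were entirely below their controls in P209L, with a median difference of -0.84 against 0.016 over all genes. They summed to 2988, 3545 and 2470 TPM in P209L against 4090 and 6103 TPM in the P209L controls. None of the 8 was called with limma, all 8 had an unadjusted p under 0.05, 2 were called with size factors, and their part in the channel levels was not tested.

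**Figure D5:**
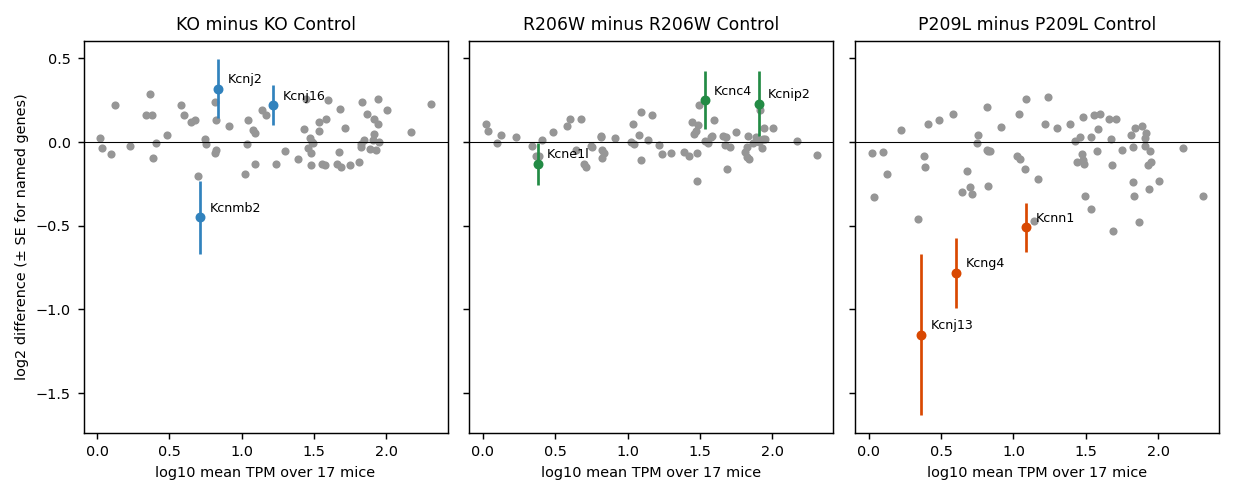
Difference in log2(TPM + 1) between each mutant and its own controls for the 74 tested members, against log10 of the mean TPM over the 17 mice, with SE bars for the 3 named members of each panel. KO and R206W differences lie between -0.45 and 0.32, and the lowest P209L points are Kcnj13 (-1.15), Kcng4 (-0.78), the unlabelled Kcnab3 (-0.53) and Kcnn1 (-0.51), none of them called.

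Kcnj13, the inward rectifier of choroid plexus epithelium, followed the choroid plexus RNA of P209L Control 2. It was at 10.4 TPM there and at 0.860 to 3.09 TPM in the other 16 mice, and Kcne2, an auxiliary subunit known from the same epithelium, was at 4.49 TPM there and at 0.0200 to 0.420 TPM elsewhere. The P209L difference of Kcnj13 was -1.15 (SE 0.479, limma adjusted p = 0.598), and without P209L Control 2 it was 0.16. Without that mouse Kcng4 (-0.63) and Kcnn1 (-0.57) kept their direction. Skeletal muscle markers were also higher in the P209L controls, at 107 and 113 TPM in sum against 43.5 to 59.2 TPM in all other mice, and their part in the channel levels was not tested.

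The difference between the mutant effects was tested directly. Between the KO and R206W effects 0 members were called and 0 had an unadjusted p under 0.05 (limma, 0.0307% and 2.29% of all genes), with the smallest p for Kcne1l (0.29, SE 0.178), Kcnj2 (0.39, SE 0.253) and Kcnj16 (0.24, SE 0.169). Between the P209L and R206W effects 0 members were called and 1, Kcng4, had an unadjusted p under 0.05 (-0.92, SE 0.280, limma adjusted p = 1.0), against 0 called and 3.98% under 0.05 among all genes. Kcnn1 (-0.40, SE 0.198) and Kcnj14 (-0.39, SE 0.206) were next. These effects were measured at different ages, so mutation and age cannot be told apart in that difference.

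The wild-type controls of the 8-week lines were compared to see how far groups of equal genotype and age lie apart across lines. R206W Control against KO Control gave 0 called members and 0 with an unadjusted p under 0.05 (limma, 0 called and 3.12% of all genes under 0.05), although 70 of 74 members lay above 0, with a median of 0.16 beside 0.13 for all genes. With size factors the member median was 0.02. KO Control 1, the mouse that stood apart, was among the KO controls. All 93 members summed to 1869 TPM there and to 2929 and 3175 TPM in KO Control 2 and 3. They summed to 2821 to 2939 TPM in the R206W controls. The part of KO Control 1 in this lean was not tested. With each mouse left out in turn 0 members were called. The members with the smallest p were Kcna3 (0.34, SE 0.171), Kcnip4 (0.28, SE 0.157) and Kcnk12 (0.41, SE 0.234).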

How the data were processed

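Total RNA was extracted from flash-frozen mouse cortex and sequenced from stranded, ribosome-depleted libraries. The authors deposited TPM values per gene symbol for each mouse, rounded to 2 decimals, and no counts were used here. Each column sums to 1000000 TPM within 1. The submitters' processing notes name Trim Galore, STAR 2.7.1a, GATK 4.0.4.0, RSEM and the mm10 build. The role of each tool, the annotation and whether counting used strand are not given in the sources used here, and 23 tested members overlap exons of a gene on the opposite strand. On the same strand 2 tested members overlap exons of another gene, Kcnab2 with Gm16334 and Kcnk4 with Catsperz. The study's test for mouse tissue is not given in those sources either.

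Rows with the same symbol were summed (120 of 55573). TPM plus 1 was taken to log2, genes with a mean of at least 1 TPM were kept, and 1 linear model with 6 group means was fitted to all 17 samples with limma 3.58.1 in R 4.3.3, using a mean-variance trend. Benjamini-Hochberg adjustment ran over the 16265 genes of each of 8 contrasts, two-sided, with a threshold of 0.05, and the procedure was tested on simulated data. The 8-week controls entered as the mean of the 2 group means. Coordinates are from GENCODE M21 (mm10).

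The members, the lists of partner and epilepsy-linked genes and the marker lists were chosen with earlier results of these data known. Genes named in the text are up to 10 members in each direction with the largest called age difference in controls, members past a threshold or with the smallest p in the other contrasts, the 10 most abundant members, the most abundant of each family, the epilepsy-linked members and up to 6 called partners. Others are named to account for a family or a count and were chosen after their values were seen. Alternatives were pseudocounts of 0.1 and 0.5, no filter, a filter at 5 TPM, size factors, quantile normalization, a fit on the groups of the contrast, a replicate block, sample weights and leaving out each mouse. A fit without both KO Control 1 and P209L Control 2 was added after seeing the data. Some genes are not reported here.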

Additional observations from a re-analysis of the deposited data

Results flagged for a closer look

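In the 6 wild-type mice of 8 weeks, 11 channel genes were screened for a mouse far from the others with Dixon's ratio of the gap to the range, and 3 values exceeded the 95% limit of 0.625. All 3 were the low value of KO Control 1, the mouse with the largest share of TPM in its 10 most abundant genes. Kcna1 was at 20.67 TPM there and at 40.85 to 50.61 TPM in the other 5 mice (ratio 0.674). Kcnj6 was at 19.04 TPM against 32.70 to 37.35 TPM (ratio 0.746). Kcnt2 was at 15.36 TPM against 20.19 to 22.58 TPM (ratio 0.669). Chance flags about 1 in 20 such groups, and 1 mouse behind several flags makes them dependent. All 3 genes were called lower at 3 weeks with and without this mouse.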

How the results depend on the processing

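The counts of called members in the main comparisons of age kept their direction, and values named for single genes kept direction and call in 985 refits, lost the call in 44, gained it in 25 and changed sign in 28. In the wild-type mice the count lower at 3 weeks was 32, and 17 to 41 with each mouse left out in turn. The count higher was 1, and 2 with no filter (Kcnt1 and Kcne2, the latter at 4.49 TPM in P209L Control 2), 4 with size factors, 5 with quantile normalization, and 0 to 1 with a mouse left out. In the mutants the count higher was 1, and 6 with size factors, 6 with quantile normalization, 2 with sample weights and 0 to 1 with a mouse left out. The count lower in the mutants was 45, and 31 to 47 with a mouse left out. KO against its controls gave 0, and 16 with sample weights. P209L gave 0, and 1 with size factors (Kcnn1), and 0 to 1 with a mouse left out (Kcnj13, -2.46 without P209L Control 1). The KO effect against the R206W effect gave 0, and 3 with sample weights, and the P209L effect against the R206W effect gave 0, and 0 to 1 with a mouse left out. Partner genes called in the controls numbered 9, and 5 with no filter, 16 with sample weights and 4 to 16 with a mouse left out. Epilepsy-linked members called numbered 14, and 7 to 16 with a mouse left out. The cause was not tested in these cases. The share of all tested genes called lower at 3 weeks in the controls moved too, from 10.2% with no filter to 41.7% with sample weights. Counts in this section that have no such share beside them describe the settings and are not read as results about the channel genes.

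Same-numbered mutants and controls had correlations of their deviations from -0.113 to 0.331, so the numbers were not taken to pair the mice. With the replicate block, partner calls numbered 5, the members lower at 3 weeks 28 in the controls and 49 in the mutants, and the counts of the other comparisons moved by less than 1.5 times.

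Changes of sign touched members whose differences were not called. Kcnmb2 in KO was 0.0045 and Kcnip4 between the 8-week controls -0.0085 with sample weights, and Kcnj13 in P209L was 0.16 without P209L Control 2. In the age comparison of the controls, Kcnip3 was 0.084 with size factors and 0.080 with quantile normalization, Kcnj4 0.10 and 0.084, Kcnip2 0.071 and 0.052, and Kcnu1 0.12 and 0.15. With the replicate block Kcnj4 was 0.068, Kcnip2 0.034 and Kcnu1 0.031. Kcnh3 was -0.024 with sample weights, -0.14 without both KO Control 1 and P209L Control 2, and -0.058 to -0.040 without 1 of them. Kcnu1 was 0.0014 and 6.1e-06 with pseudocounts of 0.1 and 0.5. With a mouse left out, Kcnj4 reached 0.0072 and 0.015, Kcnip2 ran from -0.21 to 0.034 and Kcnu1 from -0.099 to 0.051.

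The values carry no depth, so no counting interval can be given. Groups of 2 or 3 mice limit what the mutant comparisons can show, and members near 1 TPM have differences that the pseudocount shrinks. Age is tied to line, and the summed levels of pan-neuronal and mature oligodendrocyte markers differed between the ages.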
